A study of Homo sapiens with 6 samples.

Results

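The genes described here are 8 transcription factors of the interferon and cytokine pathways, STAT2, STAT3, IRF1, IRF2, IRF3, IRF5, IRF7 and IRF9. They were chosen by symbol, as 8 of the 62492 genes listed for each library, and all 8 had enough counts to be tested. The polyA RNA sequenced came from the colorectal carcinoma line HCT116, of human origin and labelled as wild type, after transfection with siControl or siNONO at 20 nM. Each group had 3 libraries, labelled Set 1, Set 2 and Set 3, and no interferon or other cytokine is named in the labels. Per the study's methods, siControl was a supplier's duplex and siNONO was 1 duplex, so that loss of NONO and other effects of that duplex cannot be told apart. The labels do not say whether the Sets were separate cultures, and the p-values measure the spread between these libraries. In bulk RNA, a change in all cells and a change in some of them cannot be told apart. Estimated counts summed to 32659002, 27491389 and 21765393 in siControl and to 28715263, 28260060 and 27946591 in siNONO, in the order of Sets 1 to 3, which is the order of every set of values given here.

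STAT proteins wait in the cytoplasm as latent factors until a Janus kinase (JAK) bound to a cytokine receptor phosphorylates them, after which they pair and enter the nucleus. STAT2 joins a further STAT protein and IRF9 to form ISGF3, the complex that binds interferon-stimulated response elements (ISREs) in the promoters of antiviral genes after type I or type III interferon. IRF3 and IRF7 are activated by the kinases TBK1 and IKKε downstream of nucleic acid sensors and switch on the interferon genes, whereas IRF1 and IRF2 bind the same kind of element and act largely as activator and repressor. In most cells IRF3 is made at all times, and IRF7 is itself a target of ISGF3.

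NONO, a DNA- and RNA-binding protein of paraspeckles and the targeted gene, was examined first. It had 496, 495 and 516 CPM, or counts scaled to library size by edgeR's TMM factors, in siControl and 89.5, 95.5 and 100 CPM in siNONO. The groups did not overlap, and the log2 fold change was -2.40 ± 0.0337 (SE, n = 3 per group; edgeR's quasi-likelihood test blocked by Set, Benjamini-Hochberg adjusted p = 2.47e-13), so that 18.9% of the siControl level was left. Fold changes and adjusted p-values below come from that test, an adjusted p of at most 0.05 was required for a call, and log2 fold changes are siNONO against siControl.

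Of the 8 genes, 6 rose in siNONO and none fell. IRF7 rose by the largest factor, followed by IRF9, STAT2, IRF2, STAT3 and IRF1, whereas IRF3 and IRF5 were not called. Among all 17000 genes tested 46.6% were called and 23.2% were called higher (3939 higher and 3985 lower). On log2(TPM + 1), TPM being RSEM's level scaled for length and library size, the split of the calls over all genes moved to 1643 higher and 3614 lower. The median log2 fold change was 0.65 over the 8 genes, 0.44 over the 6 other than IRF7 and IRF9, and -0.00 over all genes tested. In CPM, every siNONO library lay above every siControl library for 6 of the 8 genes, against 23.9% of all genes. In TPM this was so for 5 of the 8, against 14.2% of all genes, the exception being IRF1. IRF7 and IRF9 were also higher by a log2 fold change of at least 1, as were 1.62% of all genes tested.

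**Figure D1:**
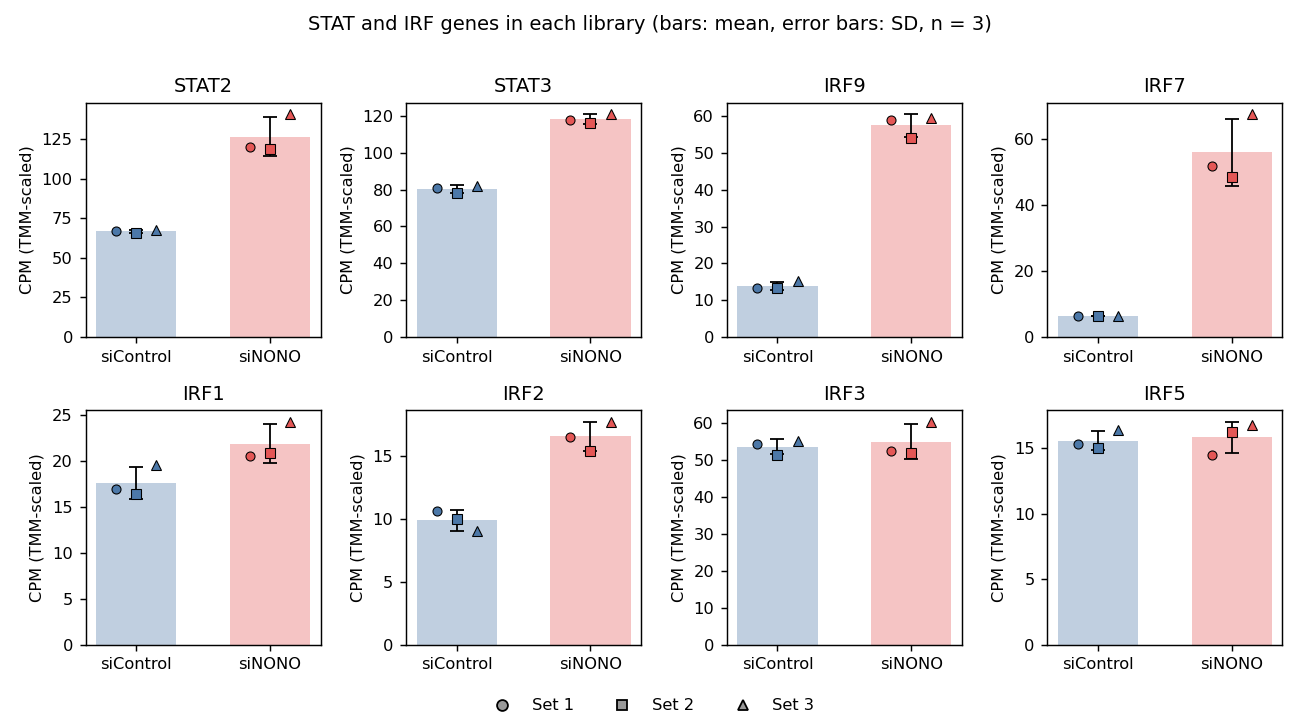
CPM (y axis, from 0, scaled by TMM) of the 8 genes in siControl and siNONO, with a bar at the mean of 3 libraries, an error bar of 1 SD and 1 point per library, shaped by Set. The points of the groups are apart for IRF7, IRF9, STAT2, STAT3, IRF2 and IRF1 and overlap for IRF3 and IRF5.

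IRF9, the DNA-binding subunit of ISGF3, lies on chromosome 14 of GRCh37 (chr14:24630443-24635774, plus strand). It had 13.4, 13.2 and 15.2 CPM in siControl and 59.1, 54 and 59.5 CPM in siNONO. The lowest siNONO library was well above the highest siControl library, and Sets 1 and 3 were close to each other in siNONO. The log2 fold change was 2.05 ± 0.0551 (SE, n = 3 per group; edgeR, adjusted p = 4.29e-11), a 4.15-fold rise that ranked 65 from the highest among the 17000 genes. Within Sets, the log2 ratio was 2.14, 2.03 and 1.97.

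A match to the letters TTCNNNGAA, the palindrome that STAT dimers bind at gamma-activated sites (GAS-like here), was found upstream of IRF9, in the RefSeq promoter window that runs from 250 bases before to 50 bases after the gene's start. The match lay at positions -63 to -55 from the start. It is shown in capitals with its surroundings because IRF9 was among the genes that rose most (GRCh38.p14, chr14:24161172-24161240, plus strand, 5′ to 3′).
IRF9: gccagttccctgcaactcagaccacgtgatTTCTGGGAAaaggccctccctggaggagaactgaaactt

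STAT2, the other ISGF3 subunit described here and the one that carries its activation domain, lies at chr12:56735381-56753951 on the minus strand. It had 66.8, 65.6 and 67.9 CPM in siControl and 120.0, 119.0 and 141.0 CPM in siNONO. The siControl libraries were nearly level, and in siNONO Set 3 stood above Sets 1 and 2. The log2 fold change was 0.92 ± 0.0437 (SE; edgeR, adjusted p = 6.69e-09), a 1.89-fold rise with log2 ratios of 0.84, 0.86 and 1.05 in the Sets.

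IRF7, the interferon-inducible activator of the interferon alpha genes, lies at chr11:612553-615983 on the minus strand. Its estimated counts were 206, 171 and 137 in siControl and 1478, 1350 and 1886 in siNONO. Scaled, these were 6.25, 6.24 and 6.24 CPM against 51.7, 48.5 and 67.5 CPM. The siControl libraries differed by less (SD 0.00475 CPM, n = 3) than counting alone would give (0.482 CPM), so that their spread understates the error of that level, whereas Set 3 stood above the others in siNONO. The log2 fold change was 3.14 ± 0.0789 (SE; edgeR, adjusted p = 2.68e-11), with a 95% interval of 2.96 to 3.31 and log2 ratios of 3.05, 2.96 and 3.43 in the Sets. That 8.79-fold rise ranked 23 from the highest of all genes tested.

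IRF3, the constitutive partner of IRF7 in virus sensing, lies at chr19:50162826-50169132 on the minus strand. It had 54.4, 51.3 and 55.1 CPM in siControl and 52.4, 52.0 and 60.4 CPM in siNONO, and the groups overlapped. Its log2 fold change was 0.03, with a 95% interval of -0.07 to 0.13 (edgeR, adjusted p = 0.614). The sign was not stable, at -0.08 on log2(TPM + 1) (limma, adjusted p = 0.234) and at -0.02 to 0.08 with each library left out in turn.

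IRF1, induced by interferon gamma through STAT dimers and itself an activator of antigen presentation genes, lies at chr5:131817301-131827075 on the minus strand. It had 16.9, 16.4 and 19.6 CPM in siControl and 20.5, 20.9 and 24.3 CPM in siNONO. The groups were apart, but the highest siControl library, Set 3, was close to the lowest siNONO library. The log2 fold change was 0.31 ± 0.0585 (SE; edgeR, adjusted p = 0.000746), with log2 ratios of 0.28, 0.35 and 0.31 in the Sets. In TPM the groups overlapped, with 16.2, 14.8 and 23.4 in siControl and 18.8, 18.8 and 22.3 in siNONO, and the change was not called on log2(TPM + 1) (0.15, limma, adjusted p = 0.24). The promoter window of IRF1 also held a GAS-like match, at positions -124 to -116, again shown in capitals (GRCh38.p14, chr5:132490859-132490927, minus strand, 5′ to 3′).
IRF1: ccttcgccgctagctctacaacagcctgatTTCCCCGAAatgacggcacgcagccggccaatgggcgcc

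IRF2, which competes with IRF1 for its sites, lies at chr4:185308883-185395712 on the minus strand. It had 10.6, 10.0 and 8.98 CPM in siControl and 16.5, 15.4 and 17.7 CPM in siNONO. Set 3 was the lowest of siControl and the highest of siNONO, which made its log2 ratio of 0.98 larger than the 0.63 and 0.62 of Sets 1 and 2. The log2 fold change was 0.73 ± 0.0837 (SE; edgeR, adjusted p = 1.35e-05).

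IRF5, a factor of Toll-like receptor signalling best known from myeloid cells, lies at chr7:128577511-128590092 on the plus strand. It had 15.3, 15.0 and 16.4 CPM in siControl and 14.5, 16.2 and 16.8 CPM in siNONO. The ranges overlapped, and the log2 fold change of 0.02 had a 95% interval of -0.12 to 0.17 (edgeR, adjusted p = 0.814). On log2(TPM + 1) it was -0.11 (limma, adjusted p = 0.305).

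STAT3, which carries signals of the interleukin 6 family, lies at chr17:40465342-40540500 on the minus strand. It had 81.0, 78.1 and 82.1 CPM in siControl and 118.0, 116.0 and 121.0 CPM in siNONO. The change was even across the Sets, with log2 ratios of 0.55, 0.57 and 0.56 and a log2 fold change of 0.56 ± 0.0336 (SE; edgeR, adjusted p = 5.19e-08).

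**Figure D2:**
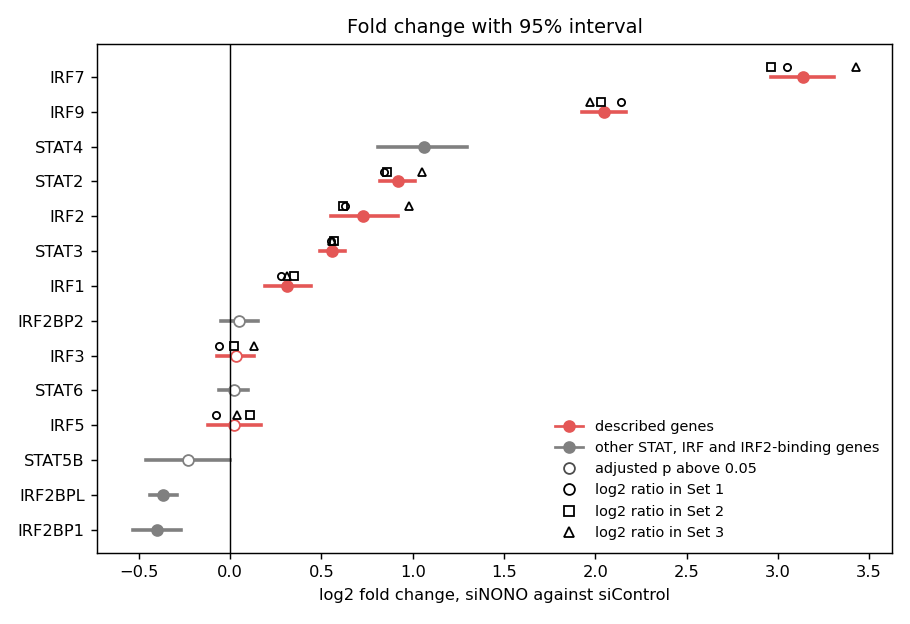
Log2 fold change of siNONO against siControl (x axis) with its 95% interval from the edgeR test for the 8 genes (red) and 6 further STAT, IRF and IRF2-binding genes (grey), open circles having an adjusted p above 0.05. The small symbols, the log2 CPM ratio in each Set, drawn for the 8 genes, lie within 0.5 of each other for each of them and on 1 side of 0 for all but IRF3 and IRF5.

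Some of these genes overlap others, and RSEM divides reads that fit several genes, so that a count need not be whole. Fractional counts were found for IRF1 and IRF3 in 6 of 6 libraries and for IRF9 in 5, and for none of the other 5 genes. Exons of IRF9 share 1544 bases with ENSG00000259529, a locus on the same strand with estimated counts of 239, 239 and 238 under siControl and of 270, 237 and 311 under siNONO. As an alternative chosen after the data were seen, the counts of overlapping genes were summed. For IRF9 this gave 20.6, 21.9 and 26.1 CPM against 68.5, 62.5 and 70.7 CPM, and a log2 fold change of 1.56 (edgeR, adjusted p = 6.07e-10). The groups were still apart and the rise was smaller than for IRF9 alone.

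Exons of IRF1 overlap 2 loci on the other strand, IRF1-AS1 and ENSG00000283782, and the latter varied from 0 to 313 counts between siControl libraries. Summed with both, IRF1 had 23.0, 18.0 and 35.7 CPM in siControl and 31.3, 28.7 and 34.3 CPM in siNONO, so that the groups overlapped, with a log2 fold change of 0.34 (edgeR, adjusted p = 0.0158). IRF3 shares 734 exon bases with BCL2L12 on the other strand, which rose by 0.28 on the log2 scale (edgeR, adjusted p = 0.00117), and the sum of the pair was called higher, at 0.12 (edgeR, adjusted p = 0.0314). The library kit marks strand, and whether the counting used it is not given in the sources used here.

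Levels were then compared between genes, in TPM, which is scaled by length. In siControl IRF3 was the most abundant, at 76.1 ± 6.82 TPM (SD, n = 3), and STAT3 (31.4 ± 0.39), STAT2 (29.4 ± 0.523), IRF9 (18.7 ± 2.38), IRF1 (18.1 ± 4.57), IRF5 (12.0 ± 1.16), IRF7 (7.76 ± 0.666) and IRF2 (6.99 ± 0.45 TPM) followed. Neighbours in this order that overlapped were IRF9 and IRF1, and IRF7 and IRF2. In siNONO the order was IRF3 (71.8 ± 6.38), IRF9 (65.7 ± 3.39), STAT2 (56.8 ± 5.21), IRF7 (56.5 ± 12.0), STAT3 (42.3 ± 0.731), IRF1 (20.0 ± 1.99), IRF5 (11.1 ± 0.987) and IRF2 (11 ± 0.735 TPM). Ranges overlapped between IRF3 and IRF9, IRF9 and STAT2, STAT2 and IRF7, and IRF5 and IRF2, although IRF9 was above STAT2 within each of the 3 siNONO libraries. IRF7 thus stood next to last in siControl and among the first 4 in siNONO.

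The summed TPM of the 6 IRF genes was 137, 127 and 156 in siControl and 231, 216 and 261 in siNONO. IRF3 made up 54.5% ± 1.57 (SD, n = 3) of that sum in siControl and 30.4% ± 1.21 in siNONO. IRF7 went from 5.56% ± 0.186 to 23.8% ± 2.71, and IRF9 from 13.4% ± 0.984 to 28.0% ± 2.29. IRF1 went from 12.9% ± 1.87 to 8.47% ± 0.288 and IRF5 from 8.62% ± 0.154 to 4.69% ± 0.152, although the level of IRF5 was not called changed. These 5 shares did not overlap between the groups, and that of IRF2 did, at 5.05% ± 0.708 and 4.66% ± 0.158. Shares of 1 sum depend on each other, so that they are not separate results.

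**Figure D3:**
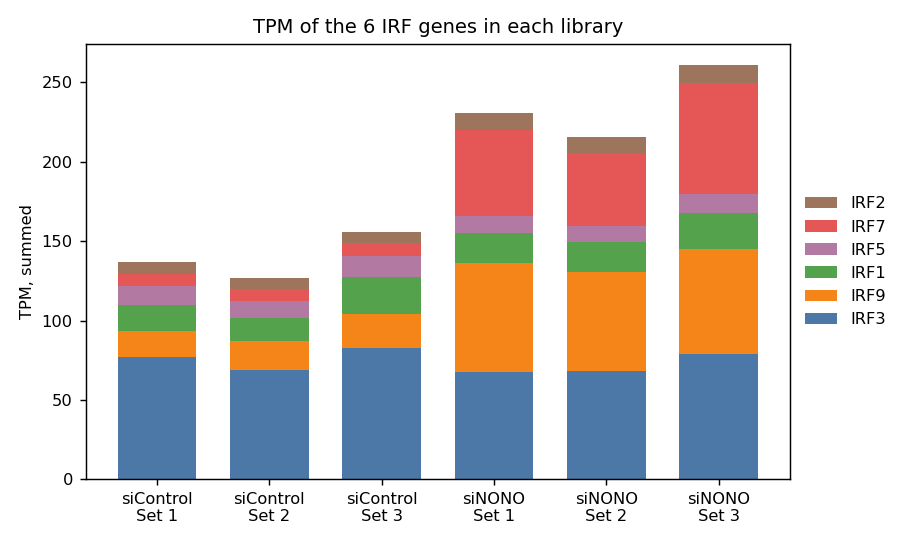
TPM (y axis, from 0) of the 6 IRF genes, stacked, in each of the 6 libraries. The IRF3 segment is of similar height in all libraries, and the IRF7 and IRF9 segments are taller in the 3 siNONO libraries.

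Of 4 log2 TPM ratios between partner genes, each lay wholly on 1 side of the other group, and each had an exact two-sided permutation p of 0.1 (Benjamini-Hochberg 0.1), the smallest that 3 against 3 libraries allow. STAT2 to IRF9, the ratio of the ISGF3 subunits, was 0.82, 0.72 and 0.43 in siControl and -0.32, -0.23 and -0.08 in siNONO. On the linear scale, STAT2 went from 1.58 times IRF9 to 0.864 times. The log2 ratio of IRF7 to IRF3 went from -3.29 ± 0.07 (SD, n = 3) to -0.36 ± 0.2, and that of STAT2 to STAT3 from -0.10 ± 0.02 to 0.42 ± 0.11. The log2 ratio of IRF1 to IRF2 was 1.12, 1.10 and 1.83 in siControl and 0.77, 0.88 and 0.93 in siNONO. Set 3 of siControl stood apart in it, and without that library the difference between groups was -0.25 in place of -0.49.

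RSEM also gives each gene an effective length, the mean over its transcripts weighted by their estimated abundance, which moves when the use of transcripts changes. By limma on log2 effective length, with the Set as a block, 0% of the 17000 genes were called (0 genes, against 1496 at an unadjusted p under 0.05). STAT2 had 3200, 3050 and 3350 bases in siControl and 2929, 2919 and 2985 in siNONO. IRF7 had 1200, 1178 and 1041 bases in siControl and 1281, 1372 and 1287 in siNONO. The groups were apart for these 2 of the 8 genes, against 11.8% of all genes apart in either direction, shorter in siNONO for STAT2 (limma, adjusted p = 0.496) and longer for IRF7 (limma, adjusted p = 0.531), and neither passed the test. The other 6 genes overlapped. IRF1 had 1190 bases in Set 3 of siControl against 1486 and 1523 in the other siControl libraries, which is the library where its TPM was highest.

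Among the genes whose pattern of log2 CPM over the 6 libraries was most like that of IRF7, by Pearson's r over 13339 other genes, were USP18 (0.9997) and ISG15 (0.9993). USP18 removes ISG15, a ubiquitin-like protein, from its targets. Their log2 fold changes were 2.27 and 2.91. For IRF9 they were HERC6 (0.9998), PARP12 (0.9994) and UBE2L6 (0.9994), with log2 fold changes of 1.98, 1.75 and 1.20. The difference between the groups sets most of each such r, whatever its size, and r is given as a description only.

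The nearest tested genes on each side were examined as well. IRF9 has RNF31, a subunit of the linear ubiquitin ligase, 574 bases before it and REC8, a meiotic cohesin, 5288 bases after it, on the same strand. RNF31 rose by 0.59 ± 0.0425 on the log2 scale (SE; edgeR, adjusted p = 2.37e-07) and REC8 by 1.46 ± 0.117 (adjusted p = 6.31e-07). Beside IRF7, PHRF1 was at -0.11 (adjusted p = 0.0291) and CDHR5, a protocadherin of the brush border, at -1.06 ± 0.348 (SE; adjusted p = 0.0242), both lower. CDHR5 had few counts, 26, 19 and 22 in siControl and 13, 10 and 10 in siNONO. TIMELESS beside STAT2 fell by 0.19 on the log2 scale (adjusted p = 0.000774), CAVIN1 beside STAT3 by 0.15 (adjusted p = 0.00514), and IL23A and STAT5B on their other sides were not called. Around IRF1, SLC22A5 was at 0.21 (adjusted p = 0.0257) and RAD50 at -0.15 (adjusted p = 0.0113). Of the neighbours of IRF2, IRF3 and IRF5, PRMT1 (0.16) and KCP (1.00) were higher, STOX2 (-0.18), SCAF1 (-0.11) and TNPO3 (-0.24) were lower, and IRF2-DT (0.84, adjusted p = 0.1) was not called. KCP too had few counts, 16, 24 and 18 in siControl and 45, 40 and 35 in siNONO. Except for REC8, RNF31 and KCP, no neighbour that was called higher changed by more than 0.21.

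The rest of both families was mixed. Of 10 other STAT and IRF genes and IRF2-binding proteins, 7 were tested, 2 rose and 2 fell, with a median log2 fold change of 0.02. The share called, 57.1%, was near the 46.6% of all genes tested. STAT4, the interleukin 12 factor, rose from 3.96 ± 0.32 to 8.22 ± 0.401 CPM (SD, n = 3; log2 fold change 1.06, edgeR, adjusted p = 7.31e-06). The corepressors IRF2BP1 (-0.40, adjusted p = 0.000132) and IRF2BPL (-0.37, adjusted p = 1.96e-06) fell. STAT5A and IRF4 had at most 8 counts in any library and IRF8, a myeloid and B cell factor, had 0 in all 6.

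Upstream of the factors, 3 of 14 receptors and JAK kinases rose and 5 fell, with a median of 0.05. The 57.1% called was again near the 46.6% of all genes and is no result about these genes as a group, and on either TPM scale 5 of the 14 were called, against 30.9% of all genes. The chains of the interferon gamma receptor moved in opposite directions. IFNGR1, which binds the ligand, went from 17.2 ± 0.525 to 40.2 ± 1.52 CPM (SD, n = 3; log2 fold change 1.22, edgeR, adjusted p = 4.48e-09), whereas IFNGR2, which brings in JAK2, went from 41.1 ± 1.71 to 25.0 ± 1.89 CPM (-0.72, adjusted p = 2.93e-07). IFNAR1 of the type I interferon receptor (-0.27, adjusted p = 0.000311), IL6R (-0.48, adjusted p = 7.96e-05) and LIFR (-0.36, adjusted p = 0.000166) were lower. TYK2, the kinase bound to IFNAR1, was higher by 0.20 (adjusted p = 0.00313) and OSMR by 0.13 (adjusted p = 0.004).

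Among 17 kinases and adaptors that activate IRF proteins, 9 rose and 3 fell (70.6% called, against 46.6% of all genes), with a median of 0.21. On either TPM scale 7 of the 17 were called in place of 12, and 30.9% of all genes in place of 46.6%. TRIM21, a ubiquitin ligase that acts on IRF proteins, rose from 14.6 ± 1.15 to 46.0 ± 3.67 CPM (SD, n = 3; log2 fold change 1.65, edgeR, adjusted p = 1.06e-09). MYD88, the adaptor between Toll-like receptors and IRF5 and IRF7, rose from 31.4 ± 1.94 to 66.1 ± 6.02 CPM (1.07, adjusted p = 1.78e-09). TICAM1, the adaptor of Toll-like receptor 3, and AZI2, an adaptor of TBK1, rose by 0.61 and 0.47. STING1, the adaptor of cytosolic DNA sensing, fell from 29.6 ± 2.0 to 18.6 ± 2.16 CPM (-0.67, adjusted p = 9.87e-07), and IRAK1 (-0.38), a kinase of the MYD88 pathway, fell as well.

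Negative regulators were divided, with 6 of 17 higher, 6 lower (70.6% called, against 46.6% of all genes) and a median of -0.06, and without the Set as a block 7 of them in place of 12 were called, and 36.3% of all genes. USP18, which also holds back the type I interferon receptor, rose from 7.76 ± 0.172 to 37.8 ± 4.27 CPM (SD, n = 3; log2 fold change 2.27, edgeR, adjusted p = 2.09e-10), and PIAS3, an inhibitor of STAT3, rose by 0.62 (adjusted p = 3.31e-06). CISH and SOCS2 were each higher by 0.33. SOCS5 (-0.60), the phosphatase PTPN2 (-0.41), SOCS3 (-0.39) and SOCS7 (-0.33) fell.

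Of 15 cofactors and transport factors, 6 rose and 5 fell (73.3% called, against 46.6% of all genes), with a median of 0.06. Those with the largest rises were PARP9 (2.78), IFI35 (2.26), DTX3L (2.06) and PARP14 (1.46), proteins that bind or modify STAT signalling complexes. PARP9 went from 17.3 ± 1.64 to 120.0 ± 6.5 CPM (SD, n = 3; edgeR, adjusted p = 1.37e-11) and its partner DTX3L from 28.8 ± 1.91 to 121.0 ± 8.4 CPM (adjusted p = 2.68e-11). The acetyltransferase CREBBP (-0.31), the exportin XPO1 (-0.30) and the importins KPNA2 (-0.22) and KPNA5 (-0.19) fell.

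Of the 28 genes listed as ISGF3 targets, MX2, OAS2, IFI44L, RSAD2 and XAF1 had under 10 counts in siControl libraries and met the filter on low counts through siNONO, where they are high, so that their direction was set by the filter. The other 23, with at least 10 counts in every library, were all called higher, against 23.2% of all genes tested. A fit limited to genes with that many counts called 4002 of 15541 higher, and all 23 of these targets. Their lowest log2 fold change was 0.53 and the median was 2.82. The siControl libraries had 0 counts of XAF1 and of MX2, an apoptosis factor and an antiviral GTPase. In siNONO, XAF1 had 67, 53 and 76 counts and MX2 had 14, 20 and 28, and these too are given as levels only. OAS1, a sensor of double-stranded RNA, rose from 0.67 ± 0.371 to 32.2 ± 4.32 CPM (SD, n = 3; log2 fold change 5.64, edgeR, adjusted p = 1.63e-11). IFI44L had 0.212 ± 0.0653 CPM in siControl and 8.31 ± 0.713 CPM in siNONO, again as levels only.

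Of 22 genes listed as targets of IRF1 and interferon gamma, 13 were tested, 9 rose (69.2%, against 23.2% of all genes) and 0 fell, with a median of 0.56. APOL6 (2.14, edgeR, adjusted p = 2.61e-07), the immunoproteasome subunit PSMB9 (1.60, adjusted p = 5.08e-08), the peptide transporter TAP1 (1.06, adjusted p = 1.55e-09) and GBP3 (0.92, adjusted p = 0.00338) changed most. The chemokine CXCL10 had 0 counts over siControl and 31 over siNONO, and was too low to be tested. Of 24 STAT3 targets, 20 were tested, 9 rose and 6 fell (75.0% called, against 46.6% of all genes), with a median of 0.13. On either TPM scale 8 of the 20 were called in place of 15, and 30.9% of all genes. LCN2 (1.54), LRG1 (0.82), TIMP1 (0.76) and KLF4 (0.52) were the highest, and CEBPD (-0.50), BCL3 (-0.45), BIRC5 (-0.41) and SOCS3 (-0.39), a feedback inhibitor that STAT3 induces, were the lowest. LCN2 and LRG1 had few counts, 17 to 83 and 11 to 34 per library, and in TPM the groups overlapped for LRG1.

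Promoter windows of RefSeq (GRCh38.p14) were searched for the ISRE-like letters GAAANNGAAA and for TTCNNNGAA on both strands. Windows matched 5 of the 8 genes by symbol, with 1 each for STAT2, STAT3, IRF1 and IRF9 and 4 for IRF5. IRF2, IRF3 and IRF7 did not match. Of these 8 windows, 0 held the ISRE-like letters, which 3.57% of all 35116 windows held, and 2 held the GAS-like letters, against 7.66% of all windows. The ISRE-like letters were in 22 of 35 windows (62.9%) of the ISGF3 targets and in 10 of 16 (62.5%) of the IRF1 and interferon gamma targets, but in 0 of 21 of the STAT3 targets. GAS-like letters were in 6 of 35 (17.1%), 6 of 16 (37.5%) and 2 of 21 (9.52%) of the same windows. A match is a description of the letters, and binding was not measured.

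Matches of the 3 ISGF3 targets with the largest log2 fold change among those with a match upstream of the start and at least 10 counts in every library (for each, the match farthest from the start), a choice made after their values were seen, are shown as examples of these letters. Capitals mark the ISRE-like letters, which read TTTCNNTTTC where the site is on the opposite strand, and each stretch is given 5′ to 3′ on the plus strand of GRCh38.p14 (chr10:89392497-89392526, chr1:78649761-78649790 and chr14:94110618-94110647).
IFIT1: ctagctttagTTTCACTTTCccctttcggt
IFI44: gcacactgagTTTCAGTTTCctttctctga
IFI27: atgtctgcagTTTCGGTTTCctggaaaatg
The log2 fold changes of IFIT1, IFI44 and IFI27 were 4.39, 4.06 and 3.94.

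The labelled cell type was checked by its markers. Epithelial markers summed to 3090 TPM in siControl and 3010 in siNONO, led by KRT8 at 1250 TPM in siControl, with VIL1 too low to be tested. Of the 9 tested, 4 were higher and 0 lower, among them the adhesion molecule EPCAM (0.32, edgeR, adjusted p = 3.52e-06). Leukocyte markers summed to 5.72, 7.50 and 9.38 TPM in siControl and to 10.1, 8.76 and 9.86 TPM in siNONO, with PTPRC and CD3E at 1 count or fewer in every library and CD3D at 0. Of these only CD68, a lysosomal protein, was called (1.40, adjusted p = 1.8e-05). Stromal and endothelial markers summed to 23.7 TPM in siControl and 30.3 in siNONO, most of it COL1A1 at 17.7 TPM, with COL1A2 at 0 and ACTA2 called higher (1.3, adjusted p = 1.34e-06).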

How the data were processed

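Per the labels and the study's methods, the authors used sickle for trimming, STAR for alignment to GENCODE transcripts of GRCh37, and RSEM (version 1.3.1) for quantification. For each library they deposited the estimated count (not normalized), TPM and FPKM (scaled by RSEM for length and library size), and the length and effective length of each gene. The FPKM values deposited by the authors were not used. Counts were rounded and tested with edgeR (version 4.0.16, quasi-likelihood form of edgeR 3), TMM, filterByExpr and the Set as a block. Standard errors were had by dividing the log2 fold change by the root of F. Effective length, and TPM as an alternative, were tested with limma (version 3.58.1).

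The choice of the block follows the study's use of batch as a covariate, and the Set numbers come from the labels. Over 12081 genes the correlation of deviations from group means was 0.332, 0.181 and 0.423 within Sets and -0.343 to 0.134 across Sets. No pair of replicates was as close as sampling noise allows (chi-square per degree of freedom 2.81 to 9.93). The biological coefficient of variation was 3.51%.

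On simulated counts of 16770 genes for siNONO against siControl, 96% of genes changed by a log2 fold of 1 and 100% of those changed by 2 were recovered, with 8 false calls. The 8 genes and all lists were chosen with earlier results of these data known. Named were the 8 genes, NONO, up to 4 called genes per list and direction, the 3 genes most alike to those at an absolute log2 fold change of at least 1, and the nearest tested neighbours, of which some are not reported here. Marker genes, further STAT and IRF genes at low counts, CXCL10, overlapping genes and the 3 promoters of targets were named outside that rule, after their values were seen. Positions are spans of the transcripts listed in the files, read from the GRCh37 mapping of GENCODE version 44, which is later than the version the authors used.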

Additional observations from a re-analysis of the deposited data

How the results depend on the processing

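The 6 calls among the 8 genes kept their direction and side of the threshold under every other count-based setting tried: library size alone or DESeq2's size factors, both filters on low counts, robust dispersions, the edgeR 4 form, DESeq2 (version 1.42.0) and each library left out. Of all genes, 7924 were called, against 5227 by DESeq2, 5257 by limma on log2(TPM + 1) and 5250 on log2(TPM + 0.1). On the 2 TPM scales IRF1 was not called (0.15 and 0.16, adjusted p = 0.24 and 0.231), IRF3 turned to -0.08 and -0.08 and IRF5 to -0.11 and -0.12, and on each 5 receptors and JAK kinases, 7 kinases and adaptors and 8 STAT3 targets were called. In CPM, the change of the log2 ratio was -1.13 for STAT2 to IRF9, 3.11 for IRF7 to IRF3 and 0.36 for STAT2 to STAT3. The causes were not tested.

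Without the replicate block, 6164 genes were called, as were 6 of the 8 genes, 7 negative regulators and 1 gene by effective length. The block changed no other call by more than 1.5 times. With each library left out, which under the block leaves the other library of its Set without weight, 6497 to 7653 genes were called. IRF3 and IRF5 ran from -0.02 to 0.08 each, and the log2 change of effective length from -0.05 to 0.13 for IRF1, -0.03 to 0.02 for IRF2 and -0.01 to 0.07 for IRF3. Summed with BCL2L12, IRF3 was called higher (0.12), which made 7 of the 8 genes called in that alternative, chosen after the data were seen. With 3 libraries per group, no smaller permutation p than 0.1 could be had.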
